A study of Mus musculus with 30 samples.

Results

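Natural killer (NK) cells were taken from single-cell RNA sequencing of mouse spleen by a gate on raw transcript counts. UMIs are unique molecular identifiers, each counted as 1 RNA molecule. A barcode was kept as a cell if 200 or more genes were detected and mitochondrial UMIs made up no more than 10%. The NK cells were chosen by measured RNA: a kept cell was an NK cell if its UMIs of Ncr1, Klrb1c, Klre1 and Klra8 summed to at least 3, those of the T cell receptor genes Cd3e, Cd3d and Cd3g to at most 1, and those of the B cell genes Cd79a, Cd79b and Ms4a1 to at most 2. Of 46886 kept cells, 725 passed, with 157 and 141 in Smc3-cKO replicates 1 and 2 and 231 and 196 in Smc3-WT replicates 1 and 2.

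The libraries were made from splenocytes depleted of red blood cells, using a Chromium 3′ single-cell kit, and were aimed at 10000 cells each. Smc3-cKO mice were compared with Smc3-WT controls, with 2 libraries for each genotype. SMC3 is a core subunit of cohesin, a ring complex that holds DNA in loops, and the series concerns how cohesin acts with the myeloid factor PU.1 at super-enhancers. The labels name neither the Cre line nor the deleted segment, strain or sex, so it is not known from them whether NK cells lose the gene, and the age of 6 to 8 weeks is stated for mice used for sorting dendritic cells. Nor do they say that replicate libraries are separate animals. The p-values therefore reflect spread among libraries, some or all of which may be technical. The other 26 samples of the series were not analysed here.

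NK cells are innate lymphocytes that kill virus-infected or transformed cells with perforin and granzymes and secrete interferon-γ and chemokines. They carry no rearranged antigen receptor, and their response is set by the balance of germline-encoded activating receptors, such as NKp46 (encoded by Ncr1) and NKG2D (Klrk1), and inhibitory receptors of the Ly49 (Klra) and NKG2 (Klrc) families. In mouse spleen they mature from CD27-high cells to cells high in CD11b, encoded by Itgam, under the factors T-bet (Tbx21), Eomes and Zeb2.

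The promoter of Ncr1 is shown because this gene marks NK cells in mice and is 1 of the 4 NK genes of the gate. The window (RefSeq, GRCm38.p6, chr7:4337465-4337764, plus strand, 1 of 2 annotated starts) is written 5′ to 3′, with matches of a RUNX motif (TGTGGT, either strand) and a T-box motif (TCACAC, either strand) in capitals. It held 2 RUNX matches and 1 T-box match.
Ncr1: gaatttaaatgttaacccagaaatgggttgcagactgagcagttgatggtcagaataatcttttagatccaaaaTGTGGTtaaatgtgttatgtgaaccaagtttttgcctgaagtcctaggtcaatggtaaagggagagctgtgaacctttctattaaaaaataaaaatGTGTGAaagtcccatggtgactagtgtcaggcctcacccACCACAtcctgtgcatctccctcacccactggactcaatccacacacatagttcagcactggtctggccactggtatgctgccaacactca
Of all 32851 promoter windows of this length, 16.8% held the RUNX letters, 14.5% the T-box letters and 23.8% an ETS motif (GGAAGT, either strand). Taken per gene, 10 of 22 genes with the largest NK ratio and an entry held the RUNX letters in at least 1 window, against 18.9% of all genes. The T-box letters were found for 3 of the 22 genes against 16.4% of all genes, and the ETS letters for 9 against 26.5%. The 22 include gate genes, and without these the letters were found for 7 (RUNX), 1 (T-box) and 8 (ETS) of 18 genes. Many of the genes with the largest NK ratio belong to the related Klra, Klrb1 and Klrc families, so the 22 cannot be read as independent genes. A match is a run of letters, not a measured binding site.

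Smc3 RNA (ENSMUSG00000024974) stood at 130 and 142 CPM in NK cells of the Smc3-cKO libraries and at 126 and 145 CPM in those of the Smc3-WT libraries, where CPM is the count per 1e6 UMIs of that cell set in that library. The log2 change was -0.02 (SE 0.24), and the groups overlapped. The kit reads the 3′ end of transcripts and the deleted segment is not named, so these counts check nothing about the genotype labels. No member passed the test among 13 genes of cohesin and its loaders and regulators, whose median log2 change was -0.02.

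The NK cells held 640007 and 450702 UMIs in all in the Smc3-cKO libraries and 688317 and 523588 in the Smc3-WT libraries, with medians of 3451 and 3027 UMIs per Smc3-cKO NK cell and 2696 and 2256 UMIs per Smc3-WT NK cell, so both Smc3-cKO libraries were deeper per cell than both Smc3-WT libraries. The median mitochondrial share was 5.03% and 2.83% in Smc3-cKO and 5.77% and 2.61% in Smc3-WT NK cells, high in replicate 1 of both genotypes. Summed RNA of 8 erythroid genes followed the same split, at 4509 and 202 CPM in Smc3-cKO and 10428 and 395 CPM in Smc3-WT NK cells. Summed RNA of 17 B cell genes was 858 and 672 CPM in Smc3-cKO and 2470 and 900 CPM in Smc3-WT NK cells, so Smc3-WT replicate 1 stood apart. In that library 51.9% of NK cells had no UMI of the 3 B cell gate genes, against 83.4% and 91.5% in Smc3-cKO and 91.3% in Smc3-WT replicate 2. Whole libraries shared 36 to 61 cell barcodes per pair, and no NK barcode occurred in more than 1 library. Scrublet marked 3 and 4 of the Smc3-cKO and 0 and 9 of the Smc3-WT NK cells as doublets. They were kept in the counts below, since the caller marked far fewer than expected in Smc3-WT replicate 1 (0.859% of its cells against 12.9%).

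The gate fixes how its own genes look in these cells, so the comparison of NK cells with other cells is a description without a test. At the gate's edge, 35 cells had a sum of exactly 3 and were in, and 57 cells had a sum of 2 and were out although they met the other limits. Gzma, which the gate did not use, stood at 1026 CPM in those 35 cells, at 754 CPM in the 57 cells just outside, and at 74.9 CPM in the 219 cells with a sum of 1. The 85 cells let in with 1 Cd3 UMI had 1824 CPM of Gzma, and the 43 cells kept out with 2 had 770 CPM.

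Genes of killing and of NK identity that the gate did not use were high in the gated cells of every library. Gzma, a granzyme protease, stood at 1900.0 and 1811 CPM in Smc3-cKO and at 2054 and 2659 CPM in Smc3-WT NK cells, against means of 13.8 CPM in T cells and 4.71 CPM in B cells. Ccl5, a chemokine stored by cytotoxic lymphocytes, reached 3053 and 2607 CPM in Smc3-cKO and 809 and 4419.5 CPM in Smc3-WT NK cells, the widest spread between libraries of 1 genotype among these 12 genes. Prf1, which encodes perforin, stood at 348 and 242 CPM in Smc3-cKO and 426 and 355 CPM in Smc3-WT NK cells. The transcription factor gene Eomes stood at 261 and 333 CPM in Smc3-cKO and 196 and 321 CPM in Smc3-WT, and Tbx21 at 834 and 599 CPM in Smc3-cKO and 686 and 518 CPM in Smc3-WT. All 12 lay above T and B cells in each library, so the label fits the RNA of most of these cells. The cells are named by RNA only, and a sort on surface protein could give other populations.

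**Figure D1:**
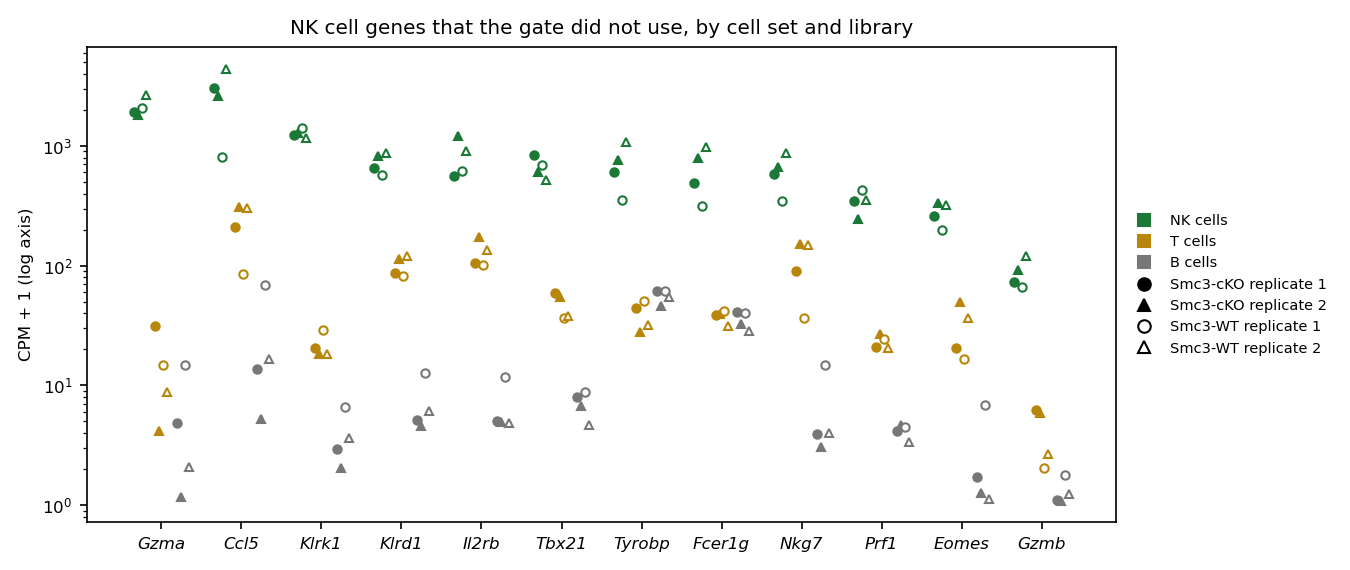
CPM plus 1 (log axis) of 12 NK cell genes that the gate did not use, in NK, T and B cells of each library (filled symbols Smc3-cKO, open symbols Smc3-WT, circles replicate 1, triangles replicate 2). For each gene the NK points lie above the T and B points of all libraries, as for Gzma with 1811 to 2659 CPM in NK cells against a mean of 13.8 CPM in T cells.

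The 25 genes with the largest ratio of NK cells over all other kept cells included all 4 NK gate genes (Ncr1, Klra8, Klre1 and Klrb1c), whose ratios the gate sets, and 21 others. After adding 5 CPM to both, the ratio was 108 for the gate gene Ncr1 and for Klra4, 102 for Gzma, 59.9 for Klrc2, 59.1 for Klrk1 and 52.2 for Itga2, the CD49b integrin used to mark mouse NK cells. Klra4, an activating Ly49 receptor in some strains, stood at 1075 and 892 CPM in Smc3-cKO and 1322 and 1152 CPM in Smc3-WT NK cells. Other leading genes included Adamts14, a procollagen-processing protease (54.4), the kinase gene Styk1 (49.4), the signalling adaptor gene Clnk (47.7), Samd3 (35.5), the interleukin-18 receptor subunit gene Il18rap (31.6), Aoah, which encodes a lipopolysaccharide-deacylating enzyme (29.9), and Tbx21 (27.9). The Klra and Klrb1 genes are near-identical families, so how reads were shared among their members is uncertain. T cells with an NK receptor sum of 3 or more, 28 and 63 in Smc3-cKO and 27 and 62 in Smc3-WT, lay between the populations, with means of 247 CPM for Ncr1 and 434 CPM for Gzma.

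Markers of other lineages were present at unlike levels. The summed erythroid genes reached 10428 CPM and the summed B cell genes 2470 CPM in NK cells of Smc3-WT replicate 1, as given above. Cd3e, which the gate limits, had 7.81 and 6.66 CPM in Smc3-cKO and 13.1 and 5.73 CPM in Smc3-WT NK cells, against a mean of 423 CPM in T cells. None of the 14 listed monocyte and macrophage genes was at 0 in every library, and their sum was 758 and 628 CPM in Smc3-cKO and 928 and 579 CPM in Smc3-WT NK cells. Of 10 genes of type 2 and type 3 innate lymphoid cells, 5 (Il17a, Areg, Il22, Il13 and Il5) were at 0 in all 4 libraries. The sum of the 10 was 89.1 and 122 CPM in Smc3-cKO and 65.4 and 118 CPM in Smc3-WT NK cells. In T cells that sum was 82.8 and 105 CPM in Smc3-cKO and 73.3 and 103 CPM in Smc3-WT. Of 6 basophil and mast cell genes, 3 (Fcer1a, Cpa3 and Mcpt8) were also at 0. The sum of the 6 was 3.12 and 0 CPM in Smc3-cKO and 2.91 and 0 CPM in Smc3-WT NK cells.

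NK cells made up 2.20% (95% Clopper-Pearson interval 1.87 to 2.57%) and 1.04% (0.875 to 1.22%) of kept cells in Smc3-cKO and 1.89% (1.66 to 2.15%) and 1.41% (1.22 to 1.61%) in Smc3-WT. The intervals cover counting error only. The means were 1.62% ± 0.821 in Smc3-cKO and 1.65% ± 0.342 in Smc3-WT (SD, n = 2 each; exact two-sided permutation p = 1, where 2 against 2 cannot go below 0.333). As a share of NK and T cells together, they were 13.9% and 4.42% in Smc3-cKO and 13.8% and 6.83% in Smc3-WT (means 9.15% ± 6.69 and 10.3% ± 4.96, SD, n = 2 each; exact two-sided permutation p = 1). Both replicate 1 libraries were high and both replicate 2 libraries low, so the spread within a genotype exceeded the difference between genotypes. Cells with at least 2 UMIs of the proliferation genes Mki67 and Top2a numbered 10 and 2 in Smc3-cKO and 19 and 11 in Smc3-WT.

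The main comparison asked which genes differed between Smc3-cKO and Smc3-WT NK cells. The answer was 4 genes, all higher in Smc3-cKO, which lie in 2 stretches of the genome: Plcb1, 9630028H03Rik and Plcb4 next to each other on chromosome 2, and Itgad on chromosome 7. UMIs were summed over the NK cells of each library and compared by edgeR's quasi-likelihood F test, adjusted by Benjamini-Hochberg at a threshold of 0.05. Of 7415 genes tested, 4 were called (0.0539%), 120 had an unadjusted p under 0.05, and the median log2 change was 0.01. DESeq2 also called 4, the same genes. In bulk sums of this kind a change in each cell and a change in the mix of NK cells cannot be told apart.

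**Figure D2:**
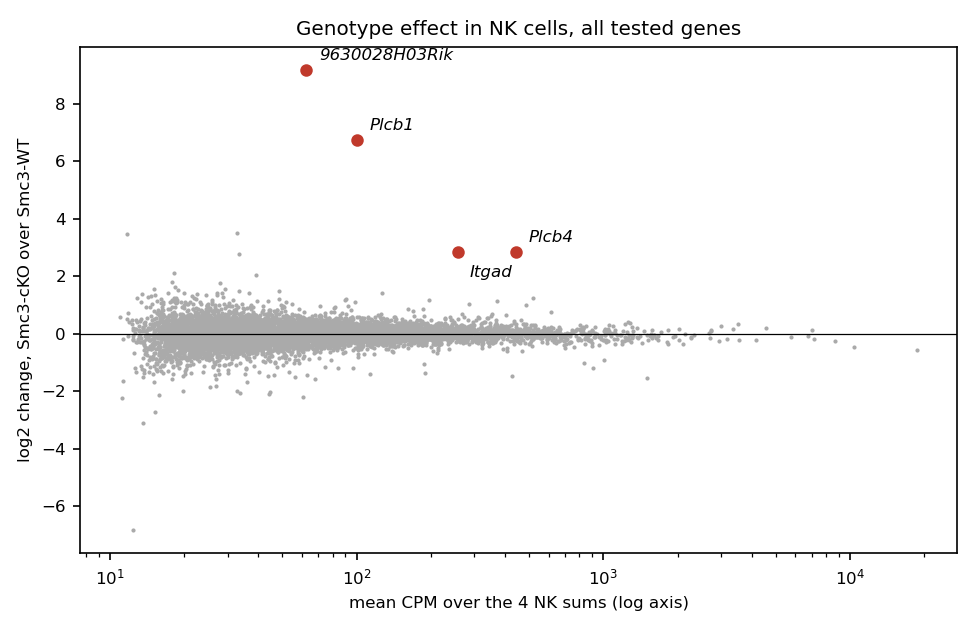
Log2 change of Smc3-cKO over Smc3-WT NK cells against the mean CPM of the 4 NK sums (log axis) for 7415 tested genes, each a grey point, with the 4 called genes in red. Plcb1 (6.74), 9630028H03Rik (9.18), Plcb4 (2.84) and Itgad (2.85) stand above the cloud of genes at their level.

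Plcb1 and Plcb4 encode phospholipase C β enzymes, which act downstream of G protein-coupled receptors and split a membrane lipid into the messengers inositol trisphosphate and diacylglycerol. The 3 genes on chromosome 2 follow each other from Plcb1 (ENSMUSG00000051177, chr2:134786164-135475258, RefSeq annotation of GRCm38.p6) over 9630028H03Rik (ENSMUSG00000085631, chr2:135580530-135583220) to Plcb4 (ENSMUSG00000039943, chr2:135658603-136014602). Their promoters are shown because these genes moved together. The windows are chr2:134785914-134786213 on the plus strand for Plcb1, chr2:135583171-135583470 on the minus strand for 9630028H03Rik and chr2:135659297-135659596 on the plus strand, 1 of 2 starts, for Plcb4. They are in lower case throughout because none held the RUNX, T-box or ETS letters searched for above.
Plcb1: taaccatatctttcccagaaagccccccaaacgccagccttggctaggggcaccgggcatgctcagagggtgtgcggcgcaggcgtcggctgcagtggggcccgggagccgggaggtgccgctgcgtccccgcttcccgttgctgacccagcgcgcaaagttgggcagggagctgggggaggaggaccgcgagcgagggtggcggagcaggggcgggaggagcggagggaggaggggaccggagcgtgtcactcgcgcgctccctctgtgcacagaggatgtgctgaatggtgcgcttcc
9630028H03Rik: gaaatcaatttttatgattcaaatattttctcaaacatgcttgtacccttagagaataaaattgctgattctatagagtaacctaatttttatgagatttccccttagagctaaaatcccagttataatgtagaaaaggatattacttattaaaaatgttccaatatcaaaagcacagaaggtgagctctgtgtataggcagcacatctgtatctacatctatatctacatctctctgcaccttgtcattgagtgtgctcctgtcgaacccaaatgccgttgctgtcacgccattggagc
Plcb4: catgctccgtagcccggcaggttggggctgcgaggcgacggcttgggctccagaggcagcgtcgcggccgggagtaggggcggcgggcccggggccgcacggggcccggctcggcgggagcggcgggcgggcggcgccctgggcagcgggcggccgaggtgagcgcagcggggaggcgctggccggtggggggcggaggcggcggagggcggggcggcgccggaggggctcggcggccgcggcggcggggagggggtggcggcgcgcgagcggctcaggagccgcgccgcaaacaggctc

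Plcb1 stood at 233 and 166 CPM in Smc3-cKO and at 2.91 and 0 CPM in Smc3-WT NK cells (log2 change 6.74, SE 0.58, adjusted p = 0.0126). In all, 224 UMIs were counted in Smc3-cKO and 2 in Smc3-WT, a ratio of CPM of 124 with a counting interval of 34.1 to 1034. A Plcb1 UMI was found in 26.1% and 21.3% of Smc3-cKO NK cells and in 0.433% and 0% of Smc3-WT NK cells, where 0 of 196 cells allows up to 1.53% of cells with a UMI (3 counts of the total). This limits cells with a UMI, not cells that express the gene. In B cells the shares were 1.98% and 1.47% in Smc3-cKO and 0.644% and 0.579% in Smc3-WT, at median depths of 4358 and 2658 UMIs in Smc3-cKO and 2856 and 2744 UMIs in Smc3-WT. After thinning each cell to 1000 UMIs, 16.03% and 11.3% of Smc3-cKO NK cells and 0% of Smc3-WT NK cells of both libraries kept a UMI, with 1 and 0 shallower cells left out in Smc3-cKO and 0 and 12 in Smc3-WT.

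9630028H03Rik, a gene with a cDNA-clone name between the phospholipase genes, stood at 159 and 91.0 CPM in Smc3-cKO NK cells and had no UMI in either Smc3-WT library. With 143 UMIs against 0, its level was at least 53.0-fold higher in Smc3-cKO, taking 3 counts over the Smc3-WT group as the floor (adjusted p = 0.0350). A UMI of it was found in 27.4% and 16.3% of Smc3-cKO NK cells, and in 0.463% and 0.266% of Smc3-cKO and 0.145% and 0.0257% of Smc3-WT B cells. T cells had 3.35 and 2.87 CPM in Smc3-cKO and 0 and 0.0980 CPM in Smc3-WT.

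Plcb4 stood at 828 and 734 CPM in Smc3-cKO and 131 and 84.0 CPM in Smc3-WT NK cells (log2 change 2.84, SE 0.30, adjusted p = 0.0350). Both Smc3-cKO libraries lay above both Smc3-WT libraries. A Plcb4 UMI was found in 86.6% and 74.5% of Smc3-cKO NK cells and in 22.1% and 12.8% of Smc3-WT NK cells, and after thinning in 52.6% and 42.6% of Smc3-cKO and 10.4% and 4.89% of Smc3-WT NK cells. T cells had 104 and 115 CPM in Smc3-cKO and 37.1 and 29.7 CPM in Smc3-WT. B cells had 94.2 and 53.05 CPM in Smc3-cKO and 6.49 and 4.77 CPM in Smc3-WT, so the order of the genotypes was the same there at lower levels.

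Itgad (ENSMUSG00000070369, chr7:128173933-128205504, RefSeq annotation of GRCm38.p6) encodes the αD chain of a β2 integrin, a leukocyte adhesion receptor. It stood at 467 and 435 CPM in Smc3-cKO and at 56.7 and 66.8 CPM in Smc3-WT NK cells (log2 change 2.85, SE 0.25, adjusted p = 0.0126). An Itgad UMI was found in 61.8% and 50.4% of Smc3-cKO and in 12.1% and 12.2% of Smc3-WT NK cells, and after thinning in 27.6% and 26.95% of Smc3-cKO and 3.896% and 3.804% of Smc3-WT NK cells. In B cells the unthinned shares were 3.40% and 0.714% in Smc3-cKO and 3.53% and 1.26% in Smc3-WT. In T cells the groups overlapped, with 17.1 and 21.1 CPM in Smc3-cKO and 22.0 and 8.13 CPM in Smc3-WT.

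**Figure D3:**
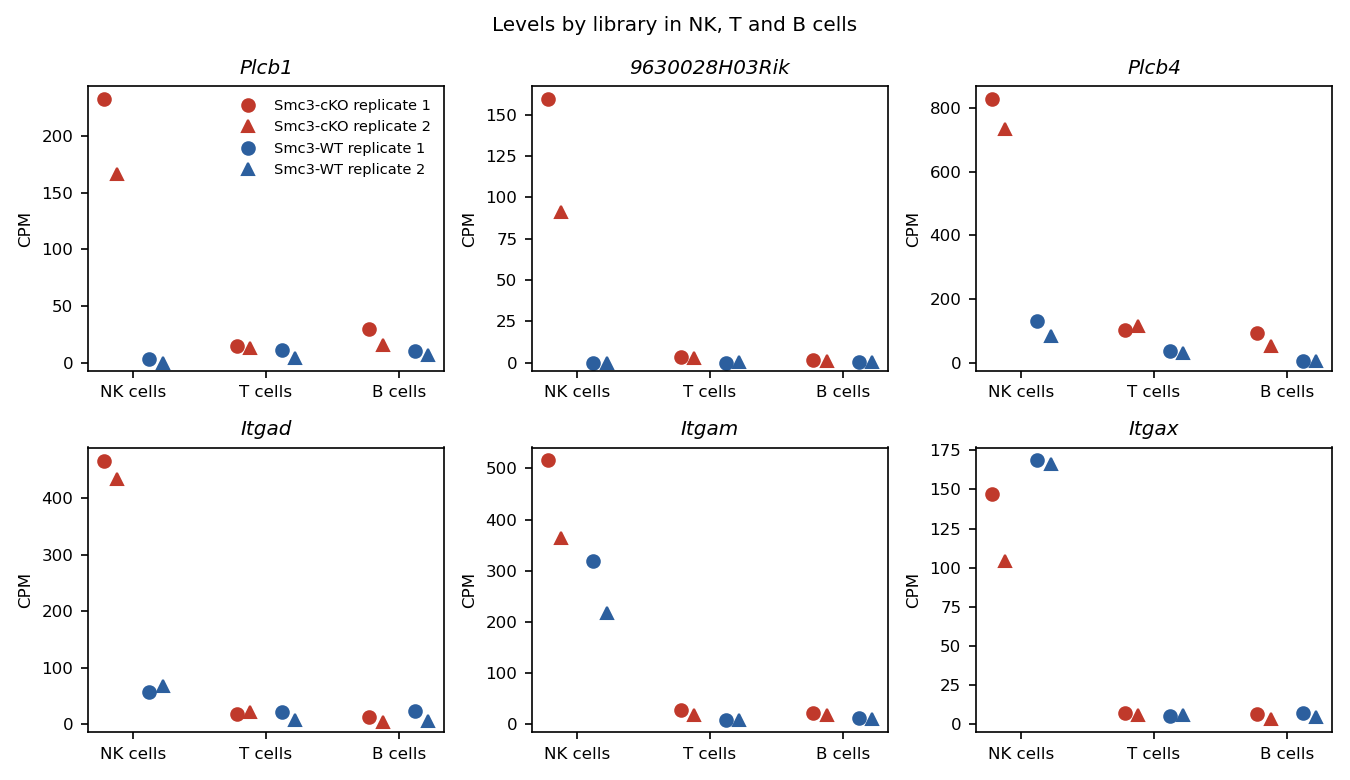
CPM of the 4 called genes and of Itgam and Itgax in NK, T and B cells, 1 point per library (red Smc3-cKO, blue Smc3-WT, circles replicate 1, triangles replicate 2). The Smc3-cKO NK cells stand apart for the 4 called genes, as for Itgad at 467 and 435 against 56.7 and 66.8 CPM, while Itgax has 147 and 104 against 169 and 166 CPM.

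The differences were of like size within each replicate number. After adding 5 CPM, the log2 ratio of Smc3-cKO over Smc3-WT was 4.91 in replicate 1 and 5.10 in replicate 2 for Plcb1, 5.04 and 4.26 for 9630028H03Rik, 2.62 and 3.05 for Plcb4, and 2.94 and 2.61 for Itgad. Without Smc3-cKO replicate 1 no gene was called by edgeR (188 had an unadjusted p under 0.05). The log2 changes of these 4 genes were then 6.46, 8.64, 2.74 and 2.79 with adjusted p of 0.0978, 0.156, 0.156 and 0.0978. The other 3 left-out libraries kept all 4 calls, with counts of 7 without Smc3-cKO replicate 2, 27 without Smc3-WT replicate 1 and 57 without Smc3-WT replicate 2.

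The neighbours of the called genes were examined after their values were seen. Within 500 kb on chromosome 2 the annotation holds 11 genes, of which 4 had enough counts for the test. The remaining tested gene, Tmx4, encodes a thioredoxin-related membrane protein and stood at 46.9 and 37.7 CPM in Smc3-cKO and 40.7 and 26.7 CPM in Smc3-WT NK cells (log2 change 0.30, SE 0.40). Lamp5, the next gene beyond Plcb4, had no UMI in NK cells of any library.

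Around Itgad, 15 of 38 genes were tested. Itgam, the CD11b gene and a marker of mature NK cells, stood at 516 and 364 CPM in Smc3-cKO and 318 and 218 CPM in Smc3-WT, which does not overlap but was not called (log2 change 0.70, SE 0.29, adjusted p = 0.9995). Itgax, the CD11c gene that lies between Itgam and Itgad, had 147 and 104 CPM in Smc3-cKO and 169 and 166 CPM in Smc3-WT (log2 change -0.42, SE 0.26). The overlapping entry 4931431B13Rik had 59.4 and 57.7 CPM in Smc3-cKO and 10.2 and 5.73 CPM in Smc3-WT (log2 change 2.79, SE 0.46, adjusted p = 0.446). Cox6a2, a cytochrome oxidase subunit gene whose annotated span meets that of Itgad, had 45.3 and 75.4 CPM in Smc3-cKO and 2.91 and 7.64 CPM in Smc3-WT (log2 change 3.497, SE 0.588, adjusted p = 0.446). Both overlap Itgad, and how reads of overlapping genes were assigned is not given in the sources used here, so their counts cannot be told apart from those of Itgad. Among the 14 tested neighbours of Itgad the median log2 change was 0.09. Of these, 4 did not overlap with Smc3-cKO higher and 3 with Smc3-cKO lower, against 14.1% and 11.3% of all tested genes.

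**Figure D4:**
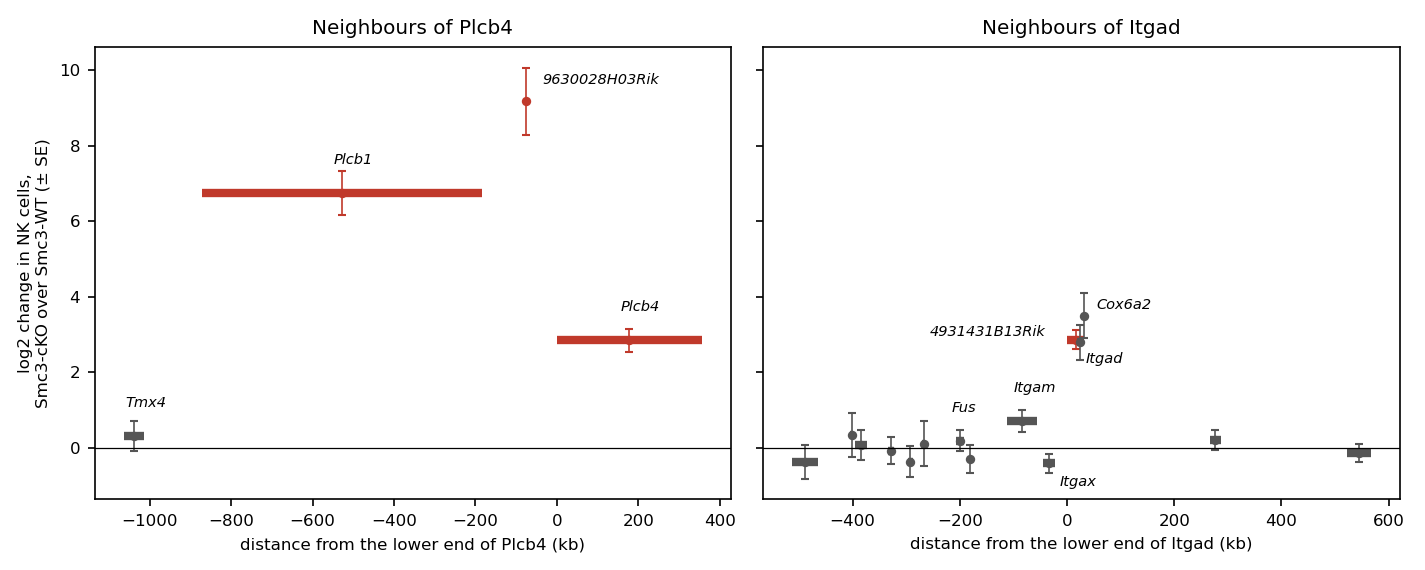
Log2 change of Smc3-cKO over Smc3-WT in NK cells (± SE) against the distance from the lower end of Plcb4 (left) and Itgad (right) in kb, with a bar for each tested gene's span and called genes in red. Plcb1, 9630028H03Rik and Plcb4 lie above Tmx4 (0.30), and Itgad (2.85) lies above Itgax (-0.42) and Itgam (0.70).

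Whether the genotype effect differed between NK and T cells was tested as the interaction of cell type and genotype, blocked by library. The effect differed for 3 of 11596 genes (0.0259%; edgeR's quasi-likelihood test, Benjamini-Hochberg adjusted). For Plcb1 it was larger in NK cells by 6.12 on the log2 scale (SE 0.62, adjusted p = 0.00340), with 14.8 and 12.7 CPM in Smc3-cKO and 11.0 and 4.21 CPM in Smc3-WT T cells. For Itgad the difference was 2.43 (SE 0.39, adjusted p = 0.0810) and for Plcb4 1.16 (SE 0.22, adjusted p = 0.239), and neither passed. 9630028H03Rik was not among the 3 genes either. In T cells alone no gene of 12364 was called by edgeR, and 302 had an unadjusted p under 0.05. Against CD8 T cells alone no gene passed the interaction test (329 with an unadjusted p under 0.05), and Plcb1 had a difference of 4.68 with an adjusted p of 0.297.

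Hip1 and Xcl1 were the other genes in that test. Hip1, which encodes an endocytic adaptor, stood at 317 and 217 CPM in Smc3-cKO and 449 and 304 CPM in Smc3-WT NK cells, and at 63.8 and 39.2 CPM in Smc3-cKO and 34.6 and 18.8 CPM in Smc3-WT T cells (interaction -1.46, SE 0.20, adjusted p = 0.0390). Xcl1, a chemokine that attracts cross-presenting dendritic cells, stood at 53.1 and 317 CPM in Smc3-cKO and 23.2 and 115 CPM in Smc3-WT NK cells, and at 1.46 and 12.1 CPM in Smc3-cKO and 4.56 and 21.8 CPM in Smc3-WT T cells (interaction 2.43, SE 0.34, adjusted p = 0.0390). In NK cells alone the genotypes overlapped for both genes, and neither was called. Xcl1 was called by edgeR with no low count filter (log2 change 1.38, adjusted p = 0.0143) and without Smc3-WT replicate 2 (log2 change 2.90, adjusted p = 6.41e-07).

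Of the activating receptors and adaptors, all 18 listed genes were tested and none was called, with a median log2 change of -0.02. Klrk1 (NKG2D) stood at 1223 and 1291 CPM in Smc3-cKO and 1401 and 1155 CPM in Smc3-WT. Tyrobp (DAP12) had 609 and 754 CPM in Smc3-cKO and 354 and 1085 CPM in Smc3-WT, with the groups overlapping. Cd226 (DNAM-1), an adhesion and activating receptor gene, had 423 and 881 CPM in Smc3-cKO and 323 and 319 CPM in Smc3-WT (log2 change 0.998, SE 0.36, adjusted p = 0.9995). Without the Il7r-led subcluster described below it had 361 and 337 CPM in Smc3-cKO and 248 and 264 CPM in Smc3-WT. In this list 3 genes did not overlap with Smc3-cKO higher and 2 with Smc3-cKO lower, against 14.1% and 11.3% of all tested genes.

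Among 14 tested inhibitory receptor genes the median log2 change was -0.02, and none was called. Of these, 0 did not overlap with Smc3-cKO higher and 4 with Smc3-cKO lower, against 14.1% and 11.3% of all tested genes. Klrd1 (CD94), the partner chain of the NKG2 receptors, stood at 648 and 821 CPM in Smc3-cKO and 567 and 875 CPM in Smc3-WT. Klrc1 (NKG2A) had 270 and 590 CPM in Smc3-cKO and 237 and 309 CPM in Smc3-WT. The gate gene Klra8 (Ly49H) is not in this list of inhibitory receptors and is given without a test. It had 936 and 475 CPM in Smc3-cKO and 1480.4 and 1149.8 CPM in Smc3-WT, and no Smc3-cKO library reached either Smc3-WT library.

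The killing machinery did not pass the test for any of 17 cytotoxic granule genes, whose median log2 change was -0.15. Gzma had a log2 change of -0.36 (SE 0.32), which did not pass. Without the Il7r-led subcluster it stood at 1984 and 2504 CPM in Smc3-cKO and 2130 and 2816 CPM in Smc3-WT, where the groups overlap (log2 change -0.17). A Gzma UMI was found in 88.5% and 63.8% of Smc3-cKO and 89.2% and 87.8% of Smc3-WT NK cells, so Smc3-cKO replicate 2 stood apart. B cells, which should lack it, had shares of 1.78% and 0.0560% in Smc3-cKO and 4.45% and 0.321% in Smc3-WT. Without the Il7r-led subcluster the Gzma share was 91.3% and 84.5% in Smc3-cKO and 92.8% and 91.9% in Smc3-WT. Prf1 had a log2 change of -0.42 (SE 0.27) and Gzmb of -0.20 (SE 0.36), and Fasl, a death ligand gene, had 73.4 and 68.8 CPM in Smc3-cKO and 110 and 107 CPM in Smc3-WT (log2 change -0.63, SE 0.26, adjusted p = 0.9995).

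Cytokine and chemokine genes gave no call among 7 tested, and for each of these 7 the genotypes overlapped. Ccl4, a chemokine made by activated NK cells, stood at 62.5 and 209 CPM in Smc3-cKO and 32.0 and 155 CPM in Smc3-WT, low in replicate 1 of both genotypes. Without Smc3-WT replicate 2, Ccl4 and Ccl5 were called by edgeR as higher in Smc3-cKO (log2 changes 2.001 and 1.771, adjusted p = 0.00258 and 0.0189). Ifng was too low for the test, at 14.1 and 22.2 CPM in Smc3-cKO and 11.6 and 7.64 CPM in Smc3-WT. Among 23 tested genes of cytokine receptors and their signalling the median log2 change was 0.00. Il2rb, the shared interleukin-2 and interleukin-15 receptor chain gene, had 564 and 1198 CPM in Smc3-cKO and 619 and 901 CPM in Smc3-WT, and Stat4, which acts downstream of interleukin-12, had 1048 and 1089 CPM in Smc3-cKO and 1172 and 947 CPM in Smc3-WT.

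Of 26 tested transcription factor genes none was called (median log2 change 0.04). Eomes had a log2 change of 0.18 (SE 0.30), Tbx21 of 0.24 (SE 0.30), Zeb2 of -0.31 (SE 0.45) and Tcf7, a factor of less mature NK cells, of 0.37 (SE 0.50). Id2, which restrains E-protein factors and is needed for innate lymphocytes, had 453 and 1098 CPM in Smc3-cKO and 173 and 722 CPM in Smc3-WT. Among 18 tested genes of late maturation the median was -0.09, and among 17 of early maturation 0.27, with no call in either. The early list holds Il7r, which encodes the interleukin-7 receptor chain and stood at 89.1 and 462 CPM in Smc3-cKO and 116 and 120 CPM in Smc3-WT, so that Smc3-cKO replicate 2 alone was high.

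Interferon-stimulated genes had a median log2 change of 0.26 over 15 tested genes, with no call. Of these, 7 did not overlap with Smc3-cKO higher and 0 with Smc3-cKO lower, against 14.1% and 11.3% of all tested genes. Usp18, a brake on interferon signalling, had 50 and 28.8 CPM in Smc3-cKO and 20.3 and 9.55 CPM in Smc3-WT (log2 change 1.36, SE 0.53, adjusted p = 0.9995), and Ifi203 389 and 366 CPM in Smc3-cKO and 360 and 277 CPM in Smc3-WT. MHC class I genes, the ligands that NK inhibitory receptors read, had a median of -0.04 over 11 tested genes, with B2m at 1394 and 1347 CPM in Smc3-cKO and 1095 and 1056 CPM in Smc3-WT. Of the 11, 2 did not overlap with Smc3-cKO higher, B2m among them, and 3 with Smc3-cKO lower. B cell genes had a median of -1.19 over 10 tested and 6 not overlapping with Smc3-cKO lower. Ebf1, a B cell factor gene, had 45.3 and 59.9 CPM in Smc3-cKO and 160 and 72.6 CPM in Smc3-WT NK cells, against a mean of 5655 CPM in B cells. Without Smc3-WT replicate 2, Ebf1 was called by edgeR as lower in Smc3-cKO (log2 change -1.65, adjusted p = 0.00442). The part of B cell and erythroid RNA in the other lists' values was not tested.

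A list of 16 genes that had changed in dendritic cells of these same libraries in earlier work was also read in NK cells, so it is not independent evidence. Of its 6 members with enough counts, Plcb1 and Plcb4 were called and the other 4 were not, against 0.0539% of all tested genes called. Dscam, a cell adhesion gene, had 184 and 300 CPM in Smc3-cKO and 116 and 145 CPM in Smc3-WT NK cells (log2 change 0.86, SE 0.30, adjusted p = 0.9995). It stood at 1113 CPM in the Il7r-led subcluster described below, against 81.0 CPM in the other NK cells. Without that subcluster it had 125 and 121 CPM in Smc3-cKO and 68.1 and 18.2 CPM in Smc3-WT NK cells (log2 change 1.43), still not called.

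Clustering of the NK cells alone, with gate genes and the 6 genes of the called neighbourhoods left out, gave 6 subclusters, described without tests. Genes of immunoglobulin and Tra, Trb, Trd and Trg segments, mitochondria, ribosomal proteins and haemoglobin were also left out, but leading genes were read from all genes. The clustering first planned kept the 6 neighbourhood genes and gave 7 subclusters, with Itgad, 9630028H03Rik and Plcb1 among the leading genes. Subcluster 1 (266 cells) had high Zeb2 (2369 CPM) and Itgam (508 CPM), and its leading genes also included Lyz2, Ebf1, H2-Ab1 and Cd74 of myeloid and B cells. It held 74 and 21 cells in Smc3-cKO and 151 and 20 in Smc3-WT, mostly from the replicate 1 libraries. Subcluster 2 (253 cells) was led by Ctla2a, Cd27, Tcf7, Ccl4 and Ccr2, genes higher in less mature NK cells for Cd27 and Tcf7, with 52 and 61 cells in Smc3-cKO and 42 and 98 in Smc3-WT. Subcluster 3 (97 cells) had the highest Gzma (4085 CPM), Ccl5 (6080 CPM) and Klrg1 (123 CPM), a marker of terminally mature NK cells. It was also led by haemoglobin genes, which were not used to form the clusters. It held 14 and 13 cells in Smc3-cKO and 13 and 57 in Smc3-WT, mostly from Smc3-WT replicate 2.

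Subcluster 4 (65 cells) was led by genes such as Cxcr6, Il7r, Adam12 and Tcrg-C4, with 1109 CPM of Il7r, 172 CPM of Cxcr6 and 148 CPM of Itga1 (CD49a). Eomes stood at 18.6 CPM in it against 295 CPM in the other NK cells, and Tbx21 at 636 against 676 CPM. Tcrg-C4, a T cell receptor γ gene, stood at 186 against 9.58 CPM, and Cd3e, which the gate limits, at 23.2 against 7.19 CPM. Whether T cells are part of subcluster 4 was not tested. All 11 annotated genes of a list for type 1 innate lymphoid cells, the tissue-resident relatives of NK cells that can lack Eomes, were at least 2 times higher in it after adding 5 CPM to both levels, and Gzma was at 102 CPM and Klra8 at 37.1 CPM. It made up 4.46% and 26.95% of the Smc3-cKO and 4.33% and 5.10% of the Smc3-WT NK cells, so Smc3-cKO replicate 2, with 38 of the 65 cells, stood apart from the other 3 libraries. Subcluster 5 (24 cells) was led by Nrg1 and Themis, a T cell signalling gene. Its Cd3e stood at 52.1 against 6.40 CPM in the other NK cells, and its Ncr1 at 512 against 1116 CPM. Whether T cells are part of subcluster 5 was not tested either. Subcluster 6 (20 cells) was led by cell cycle genes.

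**Figure D5:**
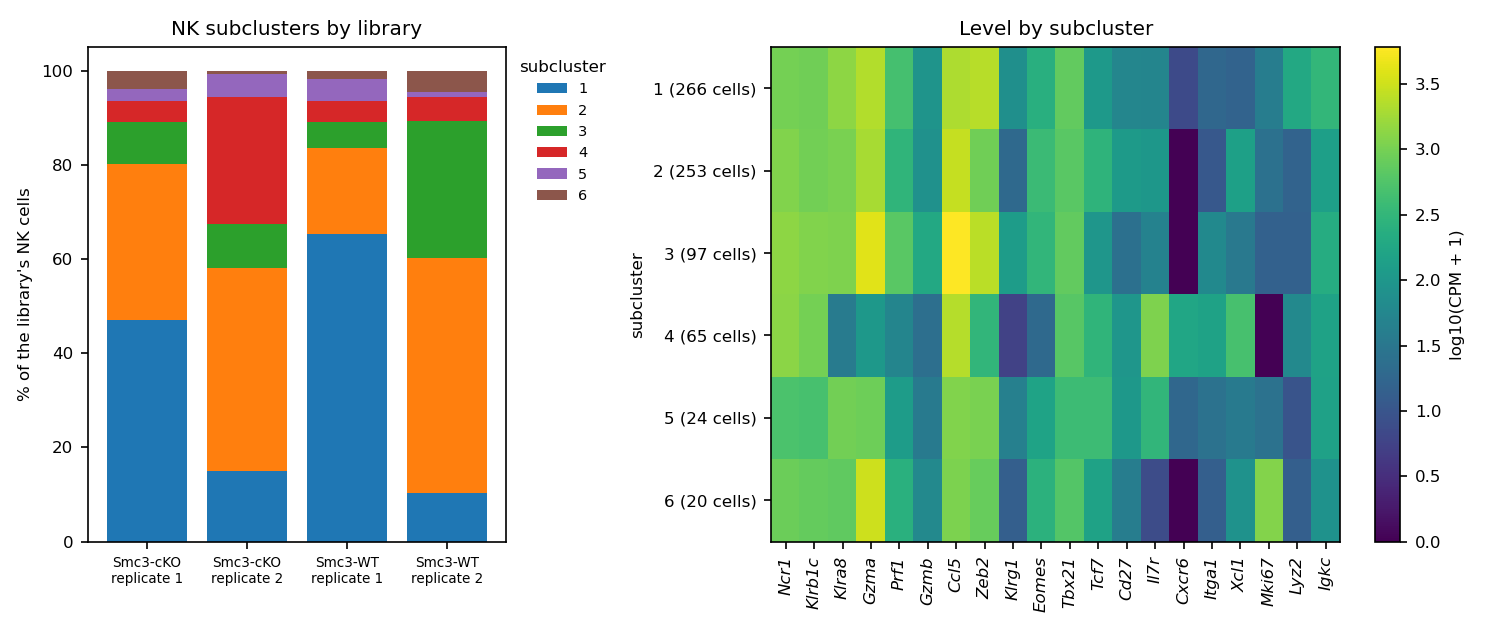
Left, the share of each library's NK cells in the 6 subclusters, in %; right, log10 of CPM plus 1 for 20 genes by subcluster. Subcluster 4, with 26.95% of NK cells in Smc3-cKO replicate 2 and 4.46% in replicate 1 against 4.33% and 5.10% in the Smc3-WT libraries, is high in Il7r and Cxcr6 and low in Eomes, Klra8 and Gzma.

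The called genes did not follow the subclusters alike. Plcb1 in Smc3-cKO cells stood at 337, 187 and 434 CPM in subclusters 1, 2 and 3 and at 12.7 CPM in subcluster 4, where 2 UMIs were found, and in Smc3-WT cells at 4.39 CPM in subcluster 1 and at 0 in the other 5. Plcb4 in Smc3-cKO cells was at 890, 747, 837 and 798 CPM in subclusters 1 to 4, against 119, 63.3, 157 and 347 CPM in Smc3-WT cells. Itgad in Smc3-cKO cells was at 533, 608, 248 and 184 CPM, against 59.3, 63.3, 68.3 and 52.0 CPM in Smc3-WT cells. Leaving out subcluster 4 kept all 4 calls, with Plcb1 at 243 and 229 CPM in Smc3-cKO and 3.03 and 0 CPM in Smc3-WT NK cells.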

How the data were processed

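The deposited values are raw UMI counts for 32285 genes per barcode, made by the authors with Cell Ranger 7.0.0, per the file headers. The submitters' processing notes list the build mm10 and the tools deepTools and Juicer, without saying which data they served. The lowest barcode total was 500 UMIs. Whether intronic or antisense reads were counted is not given in the sources used here. Libraries held 40367056 to 51299056 UMIs.

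Cells were filtered and gated as stated above. The members, gene lists and tests were chosen with earlier results of these data known. T cells had at least 2 Cd3 UMIs and an NK sum of at most 2, and B cells a B gate sum of at least 3. Counts were summed per library and tested with edgeR 4.0.16 (R 4.3.3; filterByExpr, TMM, quasi-likelihood F test). The 10 gate genes stayed in the fit and were given without a test. CPM are unscaled; log2 changes come from the fit. Subclusters used scanpy 1.11.5 (2000 variable genes, 20 components, 15 neighbours, Leiden resolution 0.5), and DESeq2 1.42.0 was an alternative. Named were called genes, the 25 largest NK ratios at 100 CPM or more, and up to 6 of the highest members per list; others were named after their values were seen. The scripts were tested on simulated NK counts in which 200 genes were changed at once. These were drawn from genes above a floor in CPM, and every gene was given the same dispersion. At a simulated log2 change of 1 the test recovered 0% of these genes, at 2 it recovered 79.5% and at 3 it recovered 97%. Unchanged genes called numbered 0, 4 and 14. With 200 changed genes the adjusted threshold is easier to pass than with the 4 calls in the NK cells. Recovery in the real data can therefore be lower, also for genes with few counts. A missing call does not show that a gene was unchanged. Of the gene IDs, 26335 matched RefSeq. Alternatives covered size factors, the count filter, single libraries, the replicate block, doublets, the gate, cell numbers and the mitochondrial limit.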

Additional observations from a re-analysis of the deposited data

Results flagged for a closer look

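The genotype effect differed between NK and T cells for 3 genes by the interaction test of edgeR (Benjamini-Hochberg adjusted). It was larger in NK cells by 6.12 on the log2 scale for Plcb1 and by 2.43 for Xcl1, and the difference was -1.46 for Hip1, whose mean was lower in Smc3-cKO than in Smc3-WT NK cells and higher in Smc3-cKO than in Smc3-WT T cells. Within each replicate number the order of the genotypes was the same for all 3 genes in NK cells. Against CD8 T cells alone the differences were 4.68, 3.39 and -1.44, with adjusted p of 0.297, 0.0597 and 0.228. Xcl1 stood at 487 CPM in the Il7r-led subcluster, and without that subcluster at 49.2 and 195 CPM in Smc3-cKO and 21.2 and 83.1 CPM in Smc3-WT NK cells.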

How the results depend on the processing

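The count of 4 genes called in NK cells was unchanged, with the same genes, under DESeq2, RLE size factors, removal of Scrublet doublets, a gate sum of at least 5, a mitochondrial limit of 5%, and, chosen after seeing the data, without cycling cells or without the Il7r-led subcluster. It was 3 in cells with no Cd3 and no B gate UMI and in equal numbers of cells, where 9630028H03Rik had adjusted p of 0.0536 and 0.0504. It was 33 with no low count filter and 34 with the replicate number as a block (17 in each direction, the 4 among them). The numbers are not stated to pair the libraries, and same-numbered libraries deviated together with a correlation of 0.449 over 4169 genes. Leaving out 1 library gave 0 to 57 calls, with the lone library assumed to vary like the other genotype. For the interaction the 3 calls became 6 with RLE size factors, 45 with no low count filter and 0 against CD8 T cells, and 27 to 140 without 1 library. The cause of these changes was not tested. The difference in NK share was -0.609 to 0.552 percentage points of kept cells and -5.92 to 3.54 of NK and T cells without 1 library, so its sign was not stable. There were 2165 alternative values for 148 results of named genes, the 3 interaction results among them. Of these values, 2126 kept their side of the threshold, 9 lost a call, 30 gained one and 0 reversed a direction called with all 4 libraries. The losses include 3 of the interaction, all against CD8 T cells. The gains include the gate genes Klra8 and Cd79b, by which the cells were chosen, and those are not read as test results. Of the gains, 12 came without Smc3-WT replicate 2, 10 with the block (Xcl1 and Cd226 among them, log2 changes 1.35 and 0.91, adjusted p of 0.00193 and 0.0375), 4 without Smc3-WT replicate 1 and 4 with no low count filter. Haemoglobin genes were called in opposite directions by the library left out, as Hbb-bt at 2.65 without Smc3-WT replicate 1 and -2.44 without Smc3-WT replicate 2, and likewise Hbb-bs, Hba-a1 and Hba-a2. The NK sums held 450702 to 688317 UMIs per library, and the parts of depth and of library number in the count of calls were not tested.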
